A study of Mus musculus with 4 samples.

Results

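The genes described here are the replication-dependent histone genes, taken as every row of the normalised count table whose symbol begins with Hist1h, Hist2h, Hist3h or Hist4h. The rule found 59 genes of 10598 in the table. By type they were 1 H1 gene, 17 H2A genes, 18 H2B genes (1 of them, Hist3h2bb-ps, a pseudogene), 12 H3 genes and 11 H4 genes. By cluster, 48 belonged to Hist1 on chromosome 13, 8 to Hist2 on chromosome 3 and 3 to Hist3 on chromosome 11.

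RNA came from the thymus of C57BL/6J mice in 4 groups with 1 sequencing library each. The groups were CAMKIIγ-/- mice given MNU, CAMKIIγ-/- mice given vehicle, wild-type mice given MNU and wild-type mice given vehicle. MNU (N-methyl-N-nitrosourea) is an alkylating carcinogen that causes thymic lymphoma in mice. It was given once, at 75 mg/kg into the peritoneum, to mice of 4 to 5 weeks, and the labels give 6 months as the treatment time in both MNU and vehicle groups. CAMKIIγ, encoded by Camk2g, is a calcium/calmodulin-dependent protein kinase. How many animals stand behind each library was not stated in the labels. Since each group had 1 library, replicate spread could not be measured, so no difference below carries a test, and each compares libraries rather than conditions.

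Replication-dependent histone genes supply the core histones and linker histone H1 that package newly copied DNA in S phase. They lie in clusters, lack introns, and give mRNAs that normally end in a short stem-loop bound by SLBP instead of a poly(A) tail. Some of them also give polyadenylated mRNA in differentiated cells. The TruSeq RNA kit named in the labels generally selects polyadenylated RNA, so the values may hold only part of each gene's mRNA.

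A stem-loop, searched on the sense strand as GG, any 2 bases, CTTTT, any base, AG, any 2 bases and CC, followed the stop codon in the annotated transcript (GENCODE M21, GRCm38) of 39 members, 21 to 58 bases after it. It occurred in 6 versions, each shown in 1 member with the 16 bases of the stem-loop in capitals and 5 bases on either side, 5′ to 3′ in the sense of the gene. The first version was found in 24 members, the second in 6 members, all H4, and the third in 5 members.
Hist3h2a: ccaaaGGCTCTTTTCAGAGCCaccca
Hist1h4d: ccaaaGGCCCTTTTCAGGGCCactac
Hist1h3c: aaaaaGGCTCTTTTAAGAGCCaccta
Hist1h4b: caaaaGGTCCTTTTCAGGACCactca
Hist1h4i: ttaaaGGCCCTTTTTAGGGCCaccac
Hist2h2ac: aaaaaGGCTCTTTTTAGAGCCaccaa
The Hist1h4b version was found in 2 members, both H4, and the versions of Hist1h4i and Hist2h2ac in those genes only among the 39. Annotated transcripts of several members outside the 39, such as Hist1h2ai and Hist1h4k, end at the stop codon. A stem-loop could not be found in these, so its absence there says nothing about the gene.

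The copies resemble each other closely, and this limits what a value of a single gene means. Coding sequences were taken as the longest open reading frame of a transcript. This had the annotated coding length in 57 of 58 members, but not in Hist2h3c2. Over the 58 members with a coding sequence, the median share of 50-base coding windows that occurred in another member was 80.2%. Members of 5 pairs (Hist1h2ao and Hist1h2ap, Hist1h2bq and Hist1h2br, Hist1h4m and Hist1h4n, Hist2h2aa1 and Hist2h2aa2, Hist2h3c1 and Hist2h3c2) had identical coding sequences. Hist1h2bq and Hist1h2br had the same value in every library. Values of single members are therefore uncertain, and the labels do not say how reads were split between copies. Hist1h1c, Hist2h2be and Hist3h2ba shared 0% of their windows with other members, and Hist3h2a shared 12.2%. The annotated spans of 21 members also overlapped another gene, such as Trim17 at Hist3h2a, and the kit does not mark strand.

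The normalised counts of the 4 libraries summed to between 32911362 and 34836257. Camk2g read 29.7 in the knockout library with MNU, 489 in the knockout library with vehicle, 3173 in the wild-type library with MNU and 2749 in the wild-type library with vehicle. At 42 genes high in wild-type MNU alone, knockout vehicle stood a median 15.4% of the way from a baseline to the wild-type MNU level. The baseline was the mean of wild-type vehicle and knockout MNU. Differences with MNU in the knockout are therefore also given with that share of wild-type MNU subtracted from knockout vehicle. What remained was scaled up to make good the share removed, with negative values set to 0. Levels are as deposited. The tissue label was checked against 10 thymocyte markers, which summed to 411493 in knockout MNU, 332828 in knockout vehicle, 217079 in wild-type MNU and 472777 in wild-type vehicle thymus. Of 8 markers of thymic epithelium, 7 were at least 2-fold lower in the wild-type MNU library than in wild type with vehicle. Foxn1 was listed at 0 in wild-type MNU. The median ratio of the markers was 0.0015, and the highest was 0.56, for Epcam.

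In wild-type thymus with MNU the histone genes split by type and cluster. All 11 H4 genes and all 9 H3 genes of Hist1 were higher than with vehicle, the 12 H2A genes of Hist1 were close to their vehicle level, and all 18 H2B genes and all 11 genes of Hist2 and Hist3 were lower. Among the 59 members, 5 were at least 2-fold higher, against 7.14% of all 10587 genes kept, and 6 were at least 2-fold lower, against 14.2% of all genes. These shares call on the difference of log2(normalised count + 10). The median over the 59 members was 0.01 on that scale and -0.01 over all genes, with types on both sides of it. In bulk tissue, fewer cells of a type and less RNA per cell cannot be told apart.

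**Figure D1:**
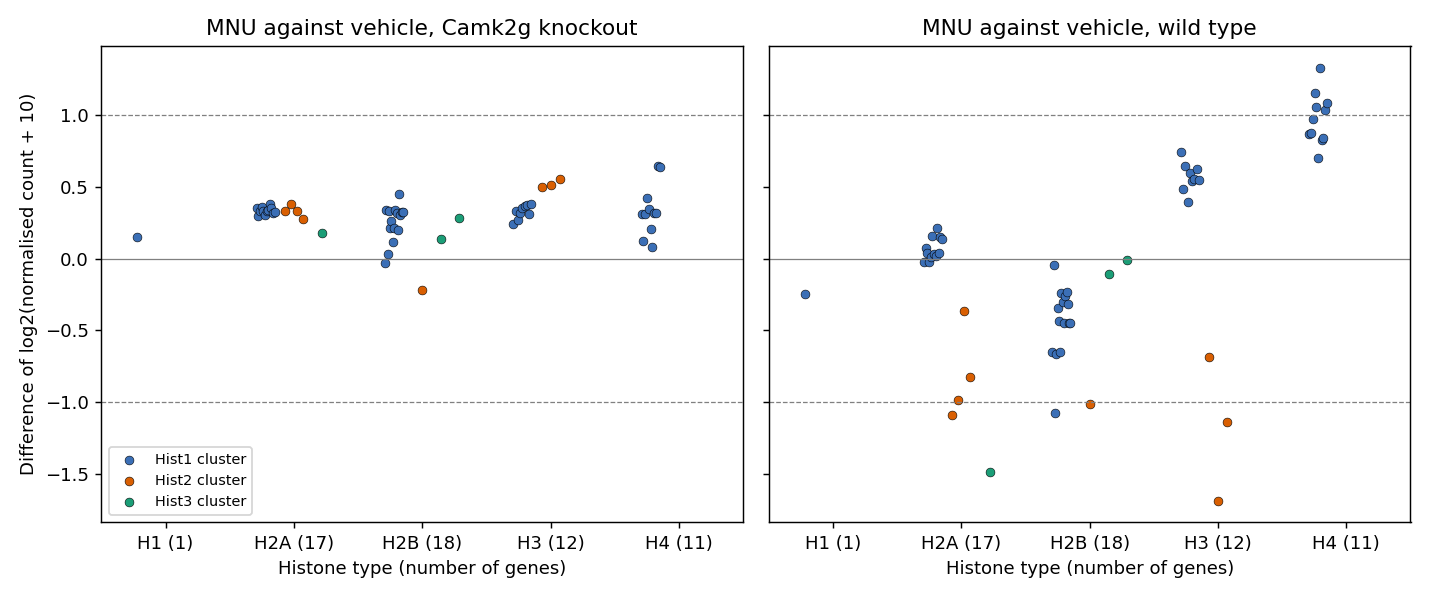
Difference of log2(normalised count + 10) between MNU and vehicle for each of the 59 histone genes by type, in Camk2g knockout thymus (left) and wild-type thymus (right). Each point is 1 gene coloured by cluster and dashed lines mark 2-fold. In wild type all H4 genes lie above 0 (median 0.97), and the lowest points are Hist2h3c1 (-1.69) and Hist3h2a (-1.49), while in the knockout all genes lie between the dashed lines.

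H4, which pairs with H3 at the centre of the nucleosome, had the highest median difference of the types in wild type, 0.97 on the log2 scale. Hist1h4i had a normalised count of 300.3 in knockout MNU, 284 in knockout vehicle, 622 in wild-type MNU and 241 in wild-type vehicle thymus. It stood highest in wild type with MNU, 2.58-fold above wild type with vehicle. The other H4 genes called at 2-fold were Hist1h4d, Hist1h4f, Hist1h4m and Hist1h4n. Hist1h4d had 146 in knockout MNU, 106 in knockout vehicle, 229 in wild-type MNU and 97.2 in wild-type vehicle thymus. Hist1h4n had 369 in knockout MNU, 234 in knockout vehicle, 467 in wild-type MNU and 214 in wild-type vehicle thymus. In both, wild type with MNU was the highest library and knockout with MNU the next. Fold differences in wild type were 2.35 for Hist1h4d, 2.18 for Hist1h4f, 2.15 for Hist1h4m and 2.18 for Hist1h4n. Over all 11 H4 genes the ratio ran between 1.66 and 2.58, and every one had its highest value in wild type with MNU.

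The summed H4 signal was 2194 in knockout MNU, 1718 in knockout vehicle, 3368 in wild-type MNU and 1624 in wild-type vehicle thymus. H4 made up 5.67% of the histone signal in knockout MNU, 5.43% in knockout vehicle, 11.3% in wild-type MNU and 4.74% in wild-type vehicle thymus. The share thus stood apart in 1 library, wild type with MNU. The signal of all 59 genes was 38728 in knockout MNU, 31647 in knockout vehicle, 29712 in wild-type MNU and 34301 in wild-type vehicle thymus. That was 0.117% in knockout MNU, 0.0962% in knockout vehicle, 0.0853% in wild-type MNU and 0.103% in wild-type vehicle thymus, as a share of each library.

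**Figure D2:**
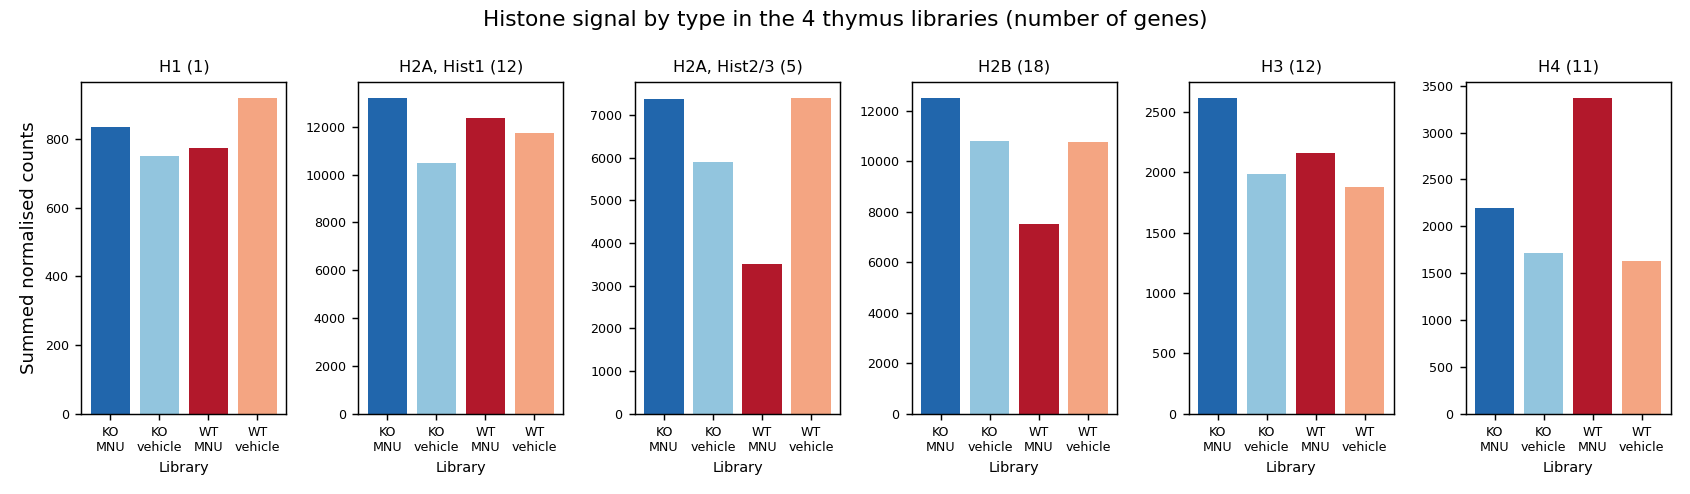
Summed normalised counts of the H1, H2A, H2B, H3 and H4 genes in each of the 4 libraries, with 1 library per group and no error. The H4 sum is highest in wild type with MNU (3368) and the H2B sum lowest there (7520).

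The H3 genes differed by cluster. The 9 of Hist1 had wild-type ratios between 1.33 and 1.72 and a sum of 1889 in knockout MNU, 1488 in knockout vehicle, 1923 in wild-type MNU and 1265 in wild-type vehicle thymus. The 3 of Hist2 summed to 728 in knockout MNU, 497 in knockout vehicle, 241 in wild-type MNU and 618 in wild-type vehicle thymus. Wild type with MNU was thus the highest library for the Hist1 sum, close above knockout MNU, and the lowest for the Hist2 sum. Gene by gene over both clusters, 9 H3 genes were highest in knockout MNU and 3 in wild type with MNU. Hist2h3c1 had a normalised count of 328 in knockout MNU, 226 in knockout vehicle, 87.3 in wild-type MNU and 303 in wild-type vehicle thymus. Hist2h3c2 is identical to it in the open reading frame taken as coding sequence. Its values were 233 in knockout MNU, 155 in knockout vehicle, 80.8 in wild-type MNU and 190 in wild-type vehicle thymus. Both were lowest in wild type with MNU, 3.48-fold and 2.36-fold below wild type with vehicle. Hist2h3b had 167 in knockout MNU, 116 in knockout vehicle, 73.4 in wild-type MNU and 124 in wild-type vehicle thymus. Hist1h3h, the highest H3 gene of Hist1 by mean, had 247 in knockout MNU, 198 in knockout vehicle, 251 in wild-type MNU and 160 in wild-type vehicle thymus, and so was lowest in wild type with vehicle.

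H2A and H2B form the dimers that flank the H3 and H4 core. The 12 H2A genes of Hist1 had wild-type differences between -0.03 and 0.22 on the log2 scale, and the 5 of Hist2 and Hist3 between -1.49 and -0.36. Hist3h2a had 1172 in knockout MNU, 1036 in knockout vehicle, 437 in wild-type MNU and 1245 in wild-type vehicle thymus. It was lowest in wild type with MNU, 2.85-fold below wild type with vehicle. Hist2h2aa1 had 2872 in knockout MNU, 2280 in knockout vehicle, 1354 in wild-type MNU and 2890 in wild-type vehicle thymus, a 2.13-fold lower value with MNU in wild type. Its copy Hist2h2aa2 had 2603 in knockout MNU, 1998 in knockout vehicle, 1298 in wild-type MNU and 2577 in wild-type vehicle thymus, just short of the 2-fold call with a log2 difference of -0.98. The low value thus lay in the same library for all 3 genes.

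All 18 H2B genes were lower with MNU in wild type, with ratios between 0.470 and 0.993, and 16 of them had their lowest value in that library. Hist1h2bc had 1274 in knockout MNU, 1243 in knockout vehicle, 551 in wild-type MNU and 1172 in wild-type vehicle thymus. The other 3 libraries lay close together, and the wild-type MNU value was 2.13-fold below wild type with vehicle. Hist2h2be had 1054 in knockout MNU, 1227 in knockout vehicle, 691 in wild-type MNU and 1404 in wild-type vehicle thymus, 2.03-fold lower with MNU in wild type. Hist1h2bq and Hist1h2br, the highest by mean, each had 1679 in knockout MNU, 1341 in knockout vehicle, 960.2 in wild-type MNU and 1312 in wild-type vehicle thymus. Hist1h1c, the linker histone gene in the table, had 836 in knockout MNU, 751 in knockout vehicle, 775 in wild-type MNU and 920 in wild-type vehicle thymus, a narrow range.

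In knockout thymus with MNU the histone genes were slightly higher than with vehicle. None of the 59 was at least 2-fold higher or lower, against 3.28% of all genes in either direction (0.331% higher and 2.95% lower). The median difference was 0.32 on the log2 scale for the members and 0.01 for all genes. A ratio above 1 was seen in 57 of 59 members, or 96.6%, and in 52.9% of all genes. The exceptions were Hist1h2ba, with 258.4 with MNU and 264.4 with vehicle, and Hist2h2be. The 57 are not separate observations, since most members share coding windows. Of the 8 members with under 50% of their windows shared, these 2 were lower, and the median was 0.16. Among the 50 members with more windows shared, 0 were lower, and the median was 0.33. Medians by type were 0.33 for H2A, 0.27 for H2B, 0.36 for H3 and 0.32 for H4. With the wild-type MNU share subtracted from the knockout library with vehicle, the median was 0.37 and 56 of 59 members were higher, against a median of 0.04 and 61.1% of all genes. The medians by type then lay further apart, at 0.37 for H2A, 0.21 for H2B, 0.40 for H3 and 0.55 for H4. Hist1h4m and Hist1h4n had the highest of the H4 differences, 0.91 each. Set against wild type with vehicle in its place, knockout with MNU gave a median of 0.30, with 54 of 59 higher. That median and count stand here without those of all genes, so how far the members depart from all genes is not shown.

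**Figure D3:**
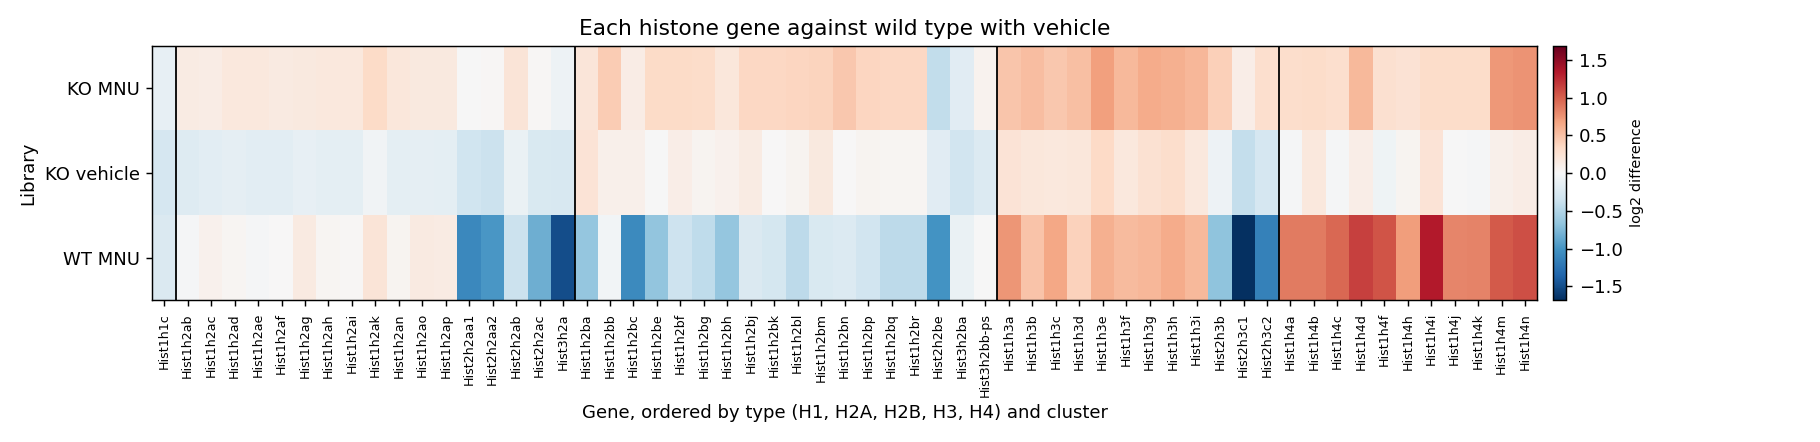
Difference of log2(normalised count + 10) from wild type with vehicle for every histone gene (columns, by type and cluster) in knockout with MNU, knockout with vehicle and wild type with MNU (rows), red for higher and blue for lower. The darkest red (Hist1h4i) and the darkest blue (Hist2h3c1) both lie in the wild-type MNU row.

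Set against wild type with MNU, knockout thymus with MNU had higher values for 17 of 18 H2B genes and 10 of 11 genes of Hist2 and Hist3, and lower values for all 11 H4 genes. The exception on both counts was Hist3h2ba, with 456 in knockout MNU and 481 in wild-type MNU thymus. At least 2-fold higher were 6 members, against 15% of all genes, and 1 was lower, against 7.37% of all genes. The 6 were Hist2h3c1 (3.76-fold), Hist2h3c2 (2.88-fold), Hist3h2a (2.68-fold), Hist1h2bc (2.31-fold), Hist2h3b (2.28-fold) and Hist2h2aa1 (2.12-fold). Hist1h4i was the member called lower, with a log2 difference of -1.03. Of the 12 members called in this comparison or with MNU in wild type, 6 were called in both, and these comparisons share the wild-type MNU library. Medians by type were 0.16 for H2A, 0.68 for H2B, 0.05 for H3 and -0.57 for H4.

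Without MNU, knockout and wild-type thymus differed little in these genes. None of the 59 was called, while 2.59% of all genes were called higher and 0.359% lower in the knockout. The differences ran between -0.41 and 0.33 on the log2 scale with a median of -0.01, against -0.0006 over all genes. In the knockout 29 of 59 members were higher. After subtraction of the wild-type MNU share the median was -0.11, and the H4 median was -0.19 in place of 0.04. The H4 shift is one that the subtraction itself gives to genes high in wild type with MNU.

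Many members lie head to head, with starts facing away from each other on opposite strands. There were 13 such pairs, 12 of them an H2A and an H2B gene, with 173 to 660 bases between starts in GENCODE. In 11 of the 12 the H2A gene had the higher log2 difference with MNU in wild type. Every H2A gene of Hist1 lay above every H2B gene of Hist1 in that difference (lowest H2A -0.025, highest H2B -0.044). For the pairs of Hist1 the count thus restates the difference between types. In the knockout the H2A gene had the higher difference in 8 of the 12, or in 11 of the 12 with the share subtracted. That last count is not independent of the wild-type count, since the subtraction carries wild-type MNU values into the knockout difference. Hist1h2ac had a wild-type difference of 0.08 and its partner Hist1h2bc one of -1.07. Hist3h2a was the exception, at -1.49 beside -0.01 for the pseudogene Hist3h2bb-ps. Genes that share a start region thus had unlike differences, but so did H2A and H2B genes of Hist1 that do not share one. Pairs are also not independent, since their near-identical copies share reads.

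**Figure D4:**
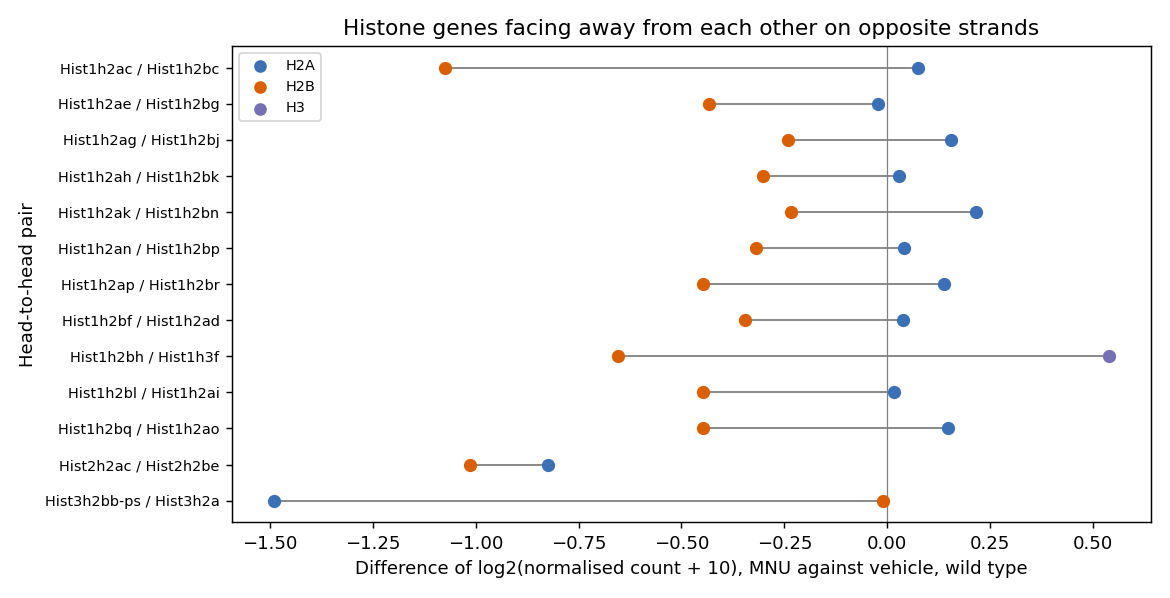
Difference of log2(normalised count + 10) between MNU and vehicle in wild type for both genes of each of the 13 head-to-head pairs, 1 pair per row. The H2A point lies right of the H2B point in 11 of 12 H2A and H2B pairs, with Hist3h2a (-1.49) the exception.

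Promoters of 53 members were matched in RefSeq (GRCm38.p6), as 300 bases from 250 before to 50 after the start. The octamer ATTTGCAT, a site for POU-family factors, was present on either strand in 6 of 16 H2A and 6 of 15 H2B promoters, in 0 of 10 H3 and 0 of 11 H4 promoters, and in 1.74% of all 27025 promoters. CCAAT was present in all 16 H2A, all 15 H2B and all 10 H3 promoters but in 3 of 11 H4 promoters, against 37.8% of all promoters. TATAAA was present in 10 of 16 H2A, 8 of 15 H2B, 4 of 10 H3 and 8 of 11 H4 promoters, against 14.1% of all. These counts are not independent, since windows of head-to-head genes can overlap and the same motif then counts for both genes. Hist1h2ae and Hist1h2bg held the same octamer in this way. Hist1h2bq and Hist1h2br had the same 150 bases before the start. The 150 bases before the start are shown, with these motifs in capitals on either strand, for Hist3h2a (chr11:58954535-58954684, plus strand), a gene low in wild type with MNU that shares few coding windows, and Hist1h4i (chr13:22041363-22041512, minus strand), the gene with the highest wild-type difference.
Hist3h2a: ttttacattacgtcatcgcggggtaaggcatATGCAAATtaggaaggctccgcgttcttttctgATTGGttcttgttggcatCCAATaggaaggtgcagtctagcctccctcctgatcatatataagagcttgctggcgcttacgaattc
Hist1h4i: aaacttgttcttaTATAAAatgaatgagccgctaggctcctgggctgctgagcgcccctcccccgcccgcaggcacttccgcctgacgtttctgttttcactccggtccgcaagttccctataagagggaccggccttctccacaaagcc
The Hist3h2a window holds 1 octamer and 2 CCAAT motifs, and the Hist1h4i window 1 TATAAA motif.

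Of the 39 members with a stem-loop, 9 had the polyadenylation signal AATAAA after it in the annotated transcript, among them Hist1h1c, Hist2h3c1 and Hist3h2a. Only annotated bases were searched, 840 after the stem-loop in Hist1h1c but 3 in Hist1h2ap. Where that stretch is short, a missing signal says little, though Hist1h3d had no signal in 752 bases. Their median difference with MNU in wild type was -0.24, with 7 of 9 lower, and that of the other 30 was 0.15, with 12 of 30 lower. In the knockout the medians were 0.30 and 0.32, or 0.24 and 0.37 with the share subtracted. The sets differ in type: the 9 hold 1 H4 and 1 H3 gene, and the 30 hold 8 H4 and 7 H3 genes. Members with under 50% of their windows shared had a wild-type median of -0.31 (7 of 8 lower), and the other 50 one of 0.04 (21 of 50 lower). Here too the makeup differed, with 1 H4 and 0 H3 genes among the 8 and 10 H4 and 12 H3 genes among the 50. Signal, annotated length, sharing and type cannot be told apart in these sets.

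Genes that act with the histones had patterns of their own. The genes listed as replication-independent histone genes had a wild-type median of 0.32 over 10 measured of 12 listed, and 1 was called. That was H1f0, a linker histone of differentiated cells, with 2800 in knockout MNU, 5755 in knockout vehicle, 19692 in wild-type MNU and 3633 in wild-type vehicle thymus. It was 5.42-fold higher with MNU in wild type and 7.03-fold lower in knockout than in wild type with MNU. With MNU in the knockout it was 2.06-fold lower, but 1.15-fold lower and not called with the share subtracted. Among 17 of 19 genes of histone mRNA transcription and processing, none was called in either genotype, and the stem-loop binding protein gene Slbp had 4038 in knockout MNU, 4240 in knockout vehicle, 4597 in wild-type MNU and 4459 in wild-type vehicle thymus.

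Histone chaperone genes had a wild-type median of 0.40 over 20 genes, with 2 called higher, and the 22 S phase genes one of 0.76, with 3 called higher. In the knockout these medians were -0.02 and -0.07. With the share subtracted they turned to 0.05 and 0.11, a direction the subtraction itself favours for lists high in wild type with MNU. No gene of either list was called in the knockout under either treatment of the vehicle library. Between knockout and wild type with MNU they were -0.49 and -0.85, with 2 chaperone genes and 6 S phase genes called lower in the knockout. Chaf1b, a subunit of the chaperone that deposits H3 and H4 on new DNA, had 1119 in knockout MNU, 1227 in knockout vehicle, 2654 in wild-type MNU and 1160 in wild-type vehicle thymus. Mki67, a proliferation marker, had 24919 in knockout MNU, 30693 in knockout vehicle, 53226 in wild-type MNU and 26753 in wild-type vehicle thymus. Both were thus highest in wild type with MNU, as the H4 genes were and the H2B genes were not.

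**Figure D5:**
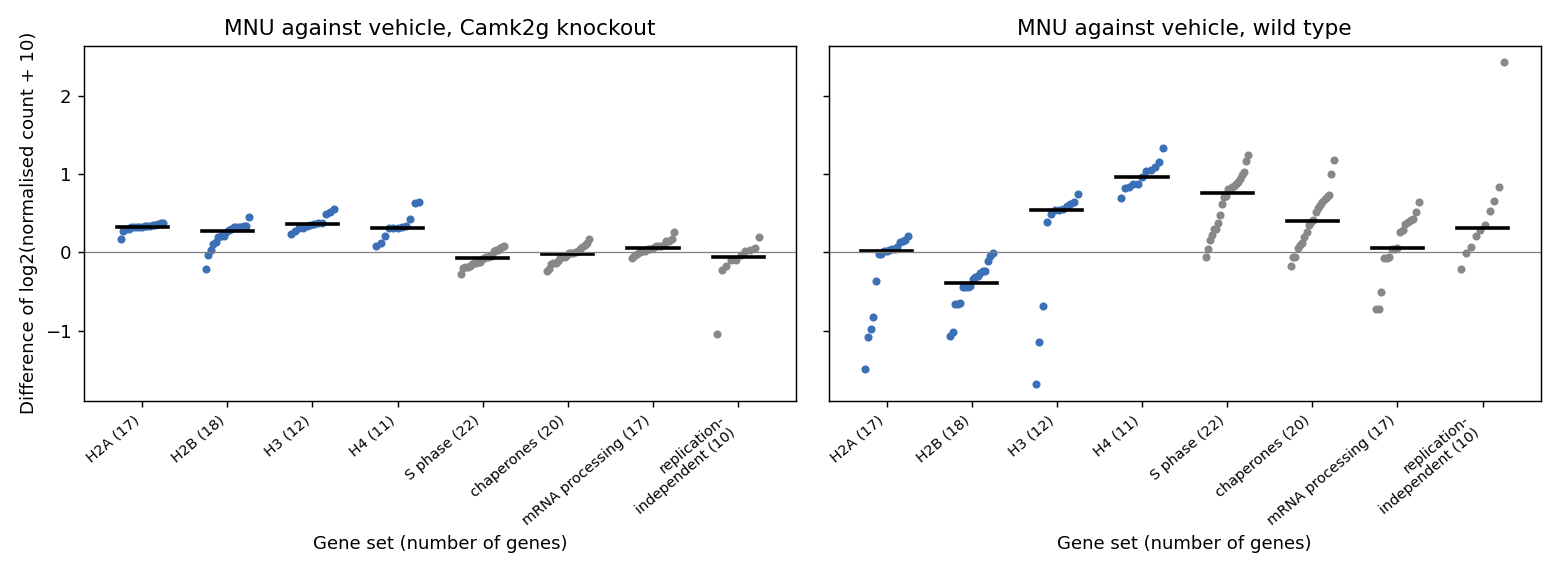
Difference of log2(normalised count + 10) between MNU and vehicle in knockout (left) and wild type (right) for the histone types (blue) and the other lists (grey). Each point is 1 gene and each bar a median, and in wild type the medians are 0.97 for H4, 0.76 for S phase genes and -0.39 for H2B.

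Cell type markers also differed between the libraries. The 8 thymic epithelium markers summed to 78111 in knockout MNU, 103349 in knockout vehicle, 9273 in wild-type MNU and 100415 in wild-type vehicle thymus. The 5 adipocyte markers, with Lep listed at 0 in wild type with MNU, summed to 12033 in knockout MNU, 35233 in knockout vehicle, 5716 in wild-type MNU and 41745 in wild-type vehicle thymus. The 5 B cell markers summed to 6662 in knockout MNU, 4056 in knockout vehicle, 1913 in wild-type MNU and 2628 in wild-type vehicle thymus. These 3 sums were thus lowest in wild type with MNU. Of the 5 B cell markers, however, 2 were higher with MNU in wild type, Blk by 3.13-fold. Plasma cell markers, 4 measured of 5, summed to 35237 in knockout MNU, 28021 in knockout vehicle, 4044 in wild-type MNU and 15073 in wild-type vehicle thymus. Macrophage markers, 5 of 6, summed to 31846 in knockout MNU, 25492 in knockout vehicle, 28692 in wild-type MNU and 15978 in wild-type vehicle thymus. Neutrophil markers, 4 of 5, summed to 1702 in knockout MNU, 425 in knockout vehicle, 1849 in wild-type MNU and 530 in wild-type vehicle thymus. Both myeloid sums were thus higher with MNU in either genotype, but the macrophage markers differed among themselves. With MNU in the knockout 2 of 5 were lower, Marco at a ratio of 0.05, and 4 of 5 were higher with the share subtracted. In wild type 1 of 5, Csf1r, was lower with MNU, at a ratio of 0.91, and Marco was 26.2-fold higher. Erythroid markers, 2 of 5, summed to 21460 in knockout MNU, 10068 in knockout vehicle, 18229 in wild-type MNU and 29709 in wild-type vehicle thymus. Of the 10 thymocyte markers, 5 were at least 2-fold lower and 1 higher with MNU in wild type. The part of these cell types in the histone differences was not tested.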

How the data were processed

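Thymus RNA was measured by sequencing in 4 libraries, 1 per group. The deposited table holds a normalised signal per gene, labelled as normalised counts, and no raw counts; how the authors normalised it was not stated in the labels. The submitters' processing notes name TopHat2 2.0.8b, edgeR and mm9, with no role or order. Whole reads could not be recovered from the values, so no count model was run, and with 1 library per group no test was possible. Depth is unknown, and no interval was computed. A gene entered if its 4 values averaged 10 or more (10587 genes, with 11 removed), differences were taken on log2(value + 10), and genes at or past 2-fold were called. Fold values are ratios of the deposited values. Named members are those called in any comparison, the 2 highest of each type by mean, and those singled out after their values were seen. The members and lists were chosen with earlier results of these data known. Stem-loops and neighbours were read from GENCODE M21 (GRCm38) and promoters from RefSeq (GRCm38.p6), neither of them the mm9 build of the table, so gene positions in the table were not used. Alternatives were other pseudocounts, filters and scalings, and treatments of the knockout vehicle library. Python 3.11.15, numpy 2.4.6, pandas 2.3.3 and matplotlib 3.10.9 were used, and the code was tested on simulated data.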

Additional observations from a re-analysis of the deposited data

Results flagged for a closer look

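For 5 members the knockout library with MNU lay above the knockout vehicle library. In the same members the wild-type library with MNU lay at least 2-fold below its own vehicle library. Since 57 of 59 members lay above vehicle in the knockout, nearly any member called lower in wild type meets this rule, and 5 of 6 did. The 5 were picked by these values, and with 1 library per group the difference was not tested. The log2 difference with MNU in the knockout minus that in wild type was 2.20 for Hist2h3c1 (0.52 in the knockout and -1.69 in wild type), 1.70 for Hist2h3c2 (0.56 and -1.14), 1.67 for Hist3h2a (0.18 and -1.49), 1.42 for Hist2h2aa1 (0.33 and -1.09) and 1.11 for Hist1h2bc (0.04 and -1.07). After subtraction of the 15.4% wild-type MNU share from the knockout vehicle library, the knockout differences were 0.37, 0.44, 0.03, 0.23 and -0.10 for these genes, so the knockout direction of Hist1h2bc turned. Hist2h3c1 and Hist2h3c2 share the open reading frame taken as their coding sequence.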

How the results depend on the processing

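Of the counts and medians over the members, 91 recomputed values stayed within 1.5-fold (counts) or 0.1 on the log2 scale (medians), and 5 did not. Among the 91, 3 medians, all close to 0, changed sign under other scalings (MNU in wild type -0.02 with upper-quartile scaling, and knockout against wild type without MNU 0.01 with either scaling). Of the single genes, 117 recomputed values kept their call, 10 lost it and 0 reversed. The other filters kept every member, so they could not change any of these values. Counting identical members only once could not change the call of a single gene. Part of the values that stayed the same were thus fixed in advance. Subtraction of the share for the other lists, the pairs and the sequence sets was chosen after seeing the data; it ended the knockout call of H1f0 (-0.20 against -1.04). With a pseudocount of 40, 1 member was at least 2-fold higher with MNU in wild type, against 5, since a larger pseudocount shrinks the differences of low genes such as H4. Hist1h4i, the member called lower in knockout than in wild type with MNU, was not called with a pseudocount of 40 (-0.96) or with upper-quartile scaling (-0.99), so that count was 0 under both. The median between knockout and wild type without MNU was -0.11 with the wild-type MNU share subtracted and 0.30 with the knockout vehicle library left out and knockout with MNU in its place, against -0.01; beyond this construction, the cause was not tested. No paired analysis was possible because each group had 1 library, and leaving out a replicate was not possible. Unknown depth limits every value, near-identical copies limit those of most members, and any selection of polyadenylated RNA may limit how much of each mRNA was measured.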
